A study of Mus musculus with 6 samples.

Results

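The 32 genes examined here encode the mouse liver's machinery for making fatty acids and building them into triglyceride. They were taken as a list of symbols: the transcription factors Srebf1 and Mlxipl, the enzymes from citrate export to palmitate, the elongases and desaturases, the acyl-CoA synthetases and the enzymes of glycerolipid assembly. All 32 were found among the 55536 genes of the deposited expression table, and 30 of them passed the filter for testing, at least 1 TPM in at least 3 libraries. TPM is a relative transcript abundance: reads are divided by transcript length, and every library is brought to 1 fixed sum. Pnpla3 and Mogat1 did not pass. Scd2 was under 1 TPM in every control and could pass only through the other group, and Elovl3 was under 1 TPM in every library of that other group and could pass only through the controls.

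RNA was sequenced from the livers of C57BL/6 mice aged 8 to 10 weeks, 3 libraries per group. Both groups carried floxed Vmp1 alleles and had received intravenous AAV8, an adeno-associated virus that reaches hepatocytes well, 2 weeks earlier. In controls the virus held the hepatocyte promoter TBG with no transgene, and in the libraries labelled as hepatocyte-specific knockout it held TBG driving Cre recombinase. Cre from TBG acts in hepatocytes, so the other liver cells keep the gene by design. VMP1 spans the endoplasmic reticulum membrane and acts in autophagy and in lipid handling, and the series concerns lipoprotein secretion and fatty liver disease. Vmp1 itself was not lower in the labelled knockout: it read 70.7, 96.5 and 88.6 TPM in controls against 157, 136 and 137 in the labelled knockout. It was called higher by 0.75 on the log2 scale as deposited; median-of-ratios scaling, described below, left it uncalled (-0.18, adjusted p = 0.20). A gene-level value cannot show whether the floxed part is missing, so the libraries are called the labelled knockout throughout.

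In the liver, citrate leaves mitochondria and is split to acetyl-CoA, acetyl-CoA carboxylase makes malonyl-CoA, and fatty acid synthase joins these units to palmitate. Elongases of the Elovl family lengthen the chain, Scd and Fads desaturases add double bonds, and acyl-CoA synthetases activate the acids. Glycerol-3-phosphate acyltransferases, Agpat enzymes, lipins and Dgat enzymes then assemble triglyceride. SREBP-1c, made from Srebf1 and activated by insulin, and ChREBP, made from Mlxipl and activated by glucose, are the best known transcription factors of this pathway in hepatocytes.

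Promoter windows, the 250 bases before each annotated start, were available from RefSeq (GRCm38.p6) for 26 of the 32 genes, 36 windows in all. Elovl3, Scd1, Scd2, Fads1, Dgat1 and Dgat2 had no entry. They were searched on both strands for the letters of motifs that SREBP, ChREBP and the CCAAT-binding factor NF-Y are known to read. The sterol regulatory element core TCACNCCAC lay in 1 of the 36 windows, at Mlxipl, and in 1.05% of the 32851 windows of all genes. The E-box CACGTG lay in 4 windows (11.1%, against 6.02% of all windows), those of Elovl5, Lpin2, Mlxipl and Slc25a1. The CCAAT box, which overlaps neither of them, lay in 16 windows (44.4%, against 33.8% of all). A pair of E-boxes 5 bases apart, the perfect form of the carbohydrate response element, lay in 0 windows of any gene, and the perfect LXR direct repeat lay in 0 members' windows. The 5 windows with a sterol element core or an E-box are shown with that of Fasn, the gene of the palmitate-making enzyme, so that the matches can be set beside the expression values. Each is written 5′ to 3′ on the gene's strand, in lower case with the matches of the 3 motifs, or their reverse complements, in capitals.
Mlxipl, internal start, plus strand, chr5:135106641-135106890: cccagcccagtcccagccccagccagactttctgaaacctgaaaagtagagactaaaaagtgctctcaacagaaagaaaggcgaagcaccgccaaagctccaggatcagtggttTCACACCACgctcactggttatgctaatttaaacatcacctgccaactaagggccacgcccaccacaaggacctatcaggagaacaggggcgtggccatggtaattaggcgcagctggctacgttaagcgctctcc
Mlxipl, first start, plus strand, chr5:135089640-135089889: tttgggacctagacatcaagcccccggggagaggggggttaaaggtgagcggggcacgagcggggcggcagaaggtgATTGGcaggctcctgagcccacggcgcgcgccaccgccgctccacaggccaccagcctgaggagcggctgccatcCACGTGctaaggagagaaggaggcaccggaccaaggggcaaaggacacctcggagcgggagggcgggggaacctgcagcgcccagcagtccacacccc
Elovl5, plus strand, chr9:77917115-77917364: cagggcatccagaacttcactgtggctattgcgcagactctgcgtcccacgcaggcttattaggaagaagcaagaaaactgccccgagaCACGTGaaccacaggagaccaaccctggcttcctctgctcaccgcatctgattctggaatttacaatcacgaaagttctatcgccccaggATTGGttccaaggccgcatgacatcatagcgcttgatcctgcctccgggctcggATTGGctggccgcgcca
Slc25a1, minus strand, chr16:17928220-17928469: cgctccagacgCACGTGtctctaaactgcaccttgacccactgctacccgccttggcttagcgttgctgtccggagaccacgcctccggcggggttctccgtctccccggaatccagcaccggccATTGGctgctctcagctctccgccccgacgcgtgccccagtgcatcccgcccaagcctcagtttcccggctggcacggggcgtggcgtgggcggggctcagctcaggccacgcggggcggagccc
Lpin2, plus strand, chr17:71183282-71183531: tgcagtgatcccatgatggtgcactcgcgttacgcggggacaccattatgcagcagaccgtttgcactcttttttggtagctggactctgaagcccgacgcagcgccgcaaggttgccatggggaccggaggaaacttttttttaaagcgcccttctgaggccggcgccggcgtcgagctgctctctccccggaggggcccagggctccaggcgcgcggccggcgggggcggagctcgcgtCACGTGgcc
Fasn, minus strand, chr11:120824548-120824797: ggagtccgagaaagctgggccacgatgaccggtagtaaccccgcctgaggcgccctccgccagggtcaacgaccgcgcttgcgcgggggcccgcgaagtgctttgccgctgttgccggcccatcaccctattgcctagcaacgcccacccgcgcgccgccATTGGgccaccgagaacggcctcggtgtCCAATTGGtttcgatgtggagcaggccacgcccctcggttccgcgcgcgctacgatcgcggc
The sterol element core of Mlxipl spans -136 to -128 from its internal start, and the E-box spans -98 to -93 from its first start. In Elovl5 the E-box spans -161 to -156, in Slc25a1 -239 to -234 and in Lpin2 -9 to -4. Fasn holds 3 CCAAT boxes between -90 and -55, a pair of which overlap. The 4 genes with an E-box did not move alike: Mlxipl and Elovl5 fell, Lpin2 was not called as deposited and was lower with median-of-ratios scaling, and Slc25a1 was called higher as deposited but lower by median-of-ratios scaling. A match of letters is a description and not a binding site, and binding was not measured here.

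The libraries differed in ways that reach far beyond these genes. The 6 libraries held between 10835 and 11064 genes at 1 TPM or more in controls and between 12838 and 12994 in the labelled knockout. Of 12796 genes tested with limma (Benjamini-Hochberg adjusted p under 0.05), 74.5% were called higher and 10.7% lower in the labelled knockout on TPM as deposited, with a median log2 fold change of 0.77. Median-of-ratios scaling, which centres the typical gene, moved genes' fold changes by a median of -0.83 and called 35.1% higher and 36.6% lower. Quantile normalization, which gives every library the same distribution, called 35.3% higher and 35.4% lower. Every count below is therefore read against these shares, and directions are given with both TPM as deposited and median-of-ratios scaling. As deposited, 86.8% of all tested genes had groups that did not overlap.

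Markers of liver cell types moved as well. The summed TPM of 12 hepatocyte markers was 50221.9 to 69322.9 in controls and 24008.8 to 27803.9 in the labelled knockout, with 10 of 12 called lower as deposited and 12 of 12 with median-of-ratios scaling. The 10 macrophage markers were all called higher, from a summed 109.59 to 188.37 TPM to 1145.81 to 1477.02 TPM, as were the 8 stellate markers, from 46.26 to 49.61 TPM to 261.37 to 300.26 TPM. The 8 endothelial markers were all higher as deposited and 5 of them with median-of-ratios scaling (46.71 to 52.32 TPM against 123.9 to 166.04 TPM). Of 6 cholangiocyte markers 4 were tested and all 4 were higher, as were the 3 tested of 7 lymphocyte markers. Of 8 adipocyte markers, Lep was at 0 in every library, and of the 3 tested 2 were higher and 1 lower. In bulk liver, fewer cells of a type and less RNA per cell cannot be told apart, and the part of cell makeup in the results below was not tested.

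Of the 30 tested genes, 15 were called higher and 8 lower in the labelled knockout as deposited, beside 74.5% and 10.7% of all genes. Another 7 were not called. The median log2 fold change of the 30 was 0.31, beside 0.77 for all genes tested. With median-of-ratios scaling 5 were higher and 18 lower, beside 35.1% and 36.6% of all genes, and 7 were not called. The median was then -0.62 beside -0.01. Quantile normalization lay between the 2 scalings, with 8 higher and 13 lower. The genes called higher with both scalings were Elovl1, Scd2, Agpat1, Lpin3 and Acsl4, and those called lower with both were Mlxipl, Acacb, Elovl2, Elovl3, Elovl5, Elovl6, Fads2 and Thrsp. Of these, Scd2 and Elovl3 could each pass the filter only through the group where it was high. Among all genes tested, 35.1% were called higher and 10.7% lower with both scalings. Those were all 4496 genes higher with median-of-ratios scaling and all 1369 lower as deposited. A call with both scalings is therefore no firmer than the stricter call alone. Of the 15 genes higher as deposited, Srebf1, Acaca and Slc25a1 turned lower with median-of-ratios scaling and 7 lost the call. All 7 genes not called as deposited became lower. Groups did not overlap for 20 of the 30, beside 86.8% of all genes tested. Without control replicate 2, the genes lower as deposited numbered 5 rather than 8.

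The summed TPM of the 32 genes was 2942.5, 3535.6 and 2509.1 in controls and 2959.13, 3041.99 and 3056.52 in the labelled knockout, so the groups overlapped. Scd1 held between 22.6% and 32.9% of that sum in every library and was the most abundant of the 32 in both groups. The order beneath it changed. Fads2 went from rank 2 by mean TPM to rank 9, Elovl3 from rank 12 to rank 31 and Elovl2 from rank 9 to rank 19. Fasn went from rank 13 to rank 4 and Agpat3 from rank 15 to rank 5.

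**Figure D1:**
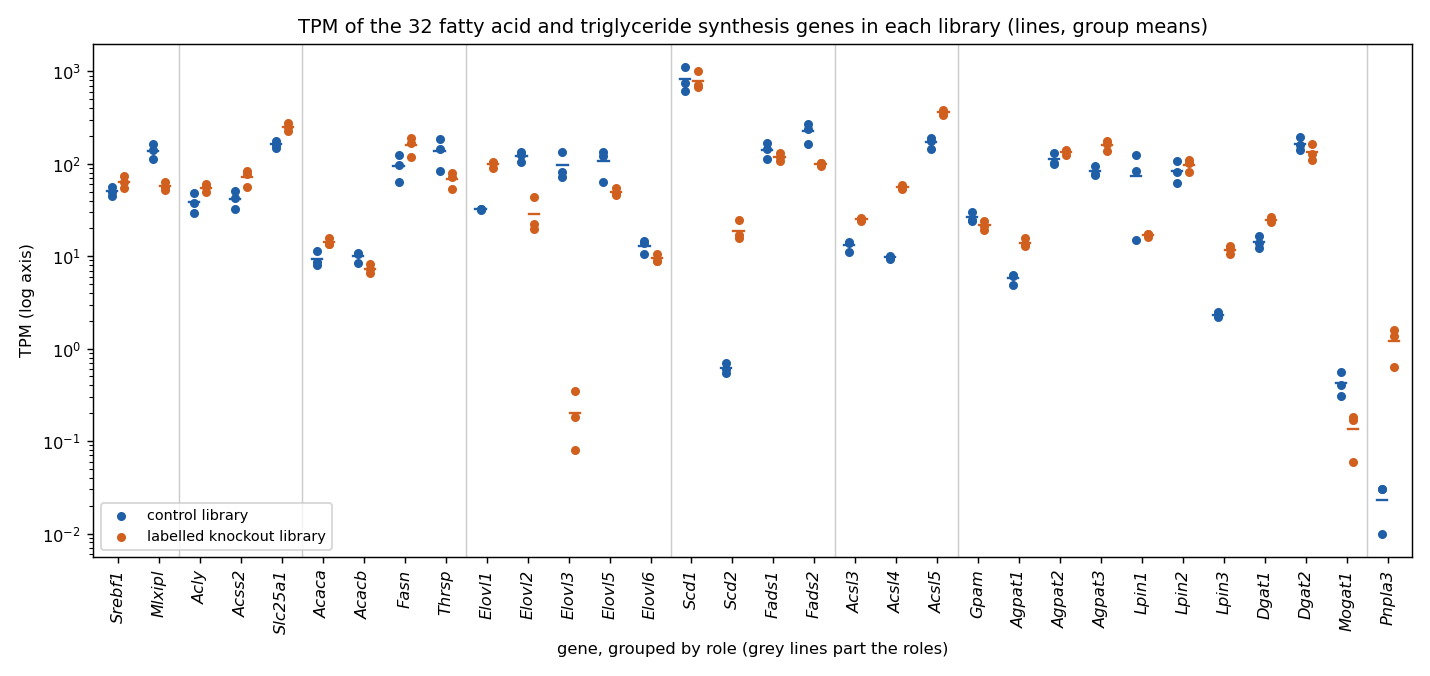
TPM of each of the 32 genes (log axis) in the 3 control libraries (blue) and the 3 labelled knockout libraries (orange), grouped by role, with lines at the group means. Elovl3 lies between 71.87 and 134.48 TPM in controls and at or under 0.35 TPM in the labelled knockout, Scd2 lies the other way, and the Scd1 groups overlap near the top.

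The transcription factors parted. Mlxipl was present at 163.03, 111.19 and 139.94 TPM in controls and at 64.13, 52.38 and 55.94 in the labelled knockout, so that every control was above every other library. It fell by 1.24 on the log2 scale (SE 0.15, adjusted p = 3.1e-05) and was at -2.17 with median-of-ratios scaling. Srebf1 was present at 49.30, 56.46 and 45.09 TPM in controls and at 63.23, 55.15 and 73.50 in the labelled knockout, and labelled knockout replicate 2 lay within the control range. Srebf1 was called higher by 0.34 as deposited (SE 0.13, adjusted p = 0.033), lost that call on leaving out control replicate 1 or 3 or labelled knockout replicate 1 or 3 (adjusted p from 0.068 to 0.14), and was called lower with median-of-ratios scaling (-0.59, adjusted p = 0.0012). The gene-level value adds the SREBP-1a and SREBP-1c transcripts, which share most of the gene. Within a library, where scaling cancels, the raw ratio of Mlxipl to Srebf1 was 2.79 ± 0.72 in controls and 0.908 ± 0.13 in the labelled knockout (SD, n = 3 each), with no overlap.

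The genes that supply acetyl-CoA were higher as deposited, by less than or about as much as the typical gene. Slc25a1, the citrate carrier of the mitochondrial inner membrane, was at 162 ± 13.7 TPM in controls and 249.9 ± 25.8 TPM in the labelled knockout (log2 fold change 0.62; it was called lower with median-of-ratios scaling, at -0.32, and higher with quantile normalization, at 0.29). Acly, which splits citrate in the cytosol, was at 38.4 ± 9.17 and 54.7 ± 5.44 TPM (0.52 as deposited; -0.40 and uncalled by median-of-ratios scaling). Acss2, which makes acetyl-CoA from acetate, was at 41.8 ± 9.35 and 72.1 ± 14.2 TPM (0.77 and -0.15, the latter not called). The groups did not overlap in any of the 3 genes, nor in 86.8% of all tested genes.

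Of the 4 genes grouped as malonyl-CoA and palmitate synthesis, Acaca and Fasn were higher and Acacb and Thrsp lower as deposited. That is 2 each way, beside 74.5% and 10.7% of all tested genes. With median-of-ratios scaling 3 were lower and 0 higher, beside 36.6% and 35.1%. Fasn, fatty acid synthase, was present at 124.41, 96.75 and 63.57 TPM in controls and at 169.22, 119.34 and 191.98 in the labelled knockout. Labelled knockout replicate 2 lay below control replicate 1, and the groups overlapped. Fasn was called higher by 0.77 as deposited (SE 0.28, adjusted p = 0.038), close to the median of all genes, lost the call on leaving out control replicate 2 or 3 or labelled knockout replicate 1 or 3 (adjusted p from 0.062 to 0.11), and was not called with median-of-ratios scaling (-0.16, adjusted p = 0.57).

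The carboxylases parted as deposited. Acaca, whose cytosolic enzyme feeds synthesis, was at 9.38 ± 1.86 TPM in controls and 14.3 ± 1.33 TPM in the labelled knockout and was called higher by 0.57 as deposited and lower by median-of-ratios scaling (-0.30, adjusted p = 0.044). Acacb, whose enzyme sits at the outer mitochondrial membrane and whose malonyl-CoA restrains fatty acid oxidation, was present at 10.84, 10.49 and 8.45 TPM in controls and at 7.20, 6.51 and 8.32 in the labelled knockout. Its lowest control was just above its highest labelled knockout library. It fell by 0.39 on the log2 scale (SE 0.13, adjusted p = 0.016), was at -1.23 with median-of-ratios scaling, and as deposited lost the call without control replicate 1 or 2 or labelled knockout replicate 2 (adjusted p from 0.053 to 0.055). The raw ratio of Acacb to Acaca was 1.08 ± 0.18 in controls and 0.514 ± 0.031 in the labelled knockout. Thrsp, the Spot 14 protein that goes with lipogenesis in liver and fat, was present at 82.52, 186.91 and 144.92 TPM in controls and at 71.78, 53.91 and 79.89 in the labelled knockout. Control replicate 1 lay close to the labelled knockout. Thrsp fell by 0.94 on the log2 scale as deposited (SE 0.32, adjusted p = 0.031), a call kept only without control replicate 1 among the 6 fits that left out a library (adjusted p from 0.051 to 0.11 in the other 5), and was at -1.87 with median-of-ratios scaling.

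Among the elongases, 4 of 5 were lower and Elovl1 was higher with both scalings, beside 10.7% and 35.1% of all tested genes. Elovl3 (ENSMUSG00000038754, chr19:46131897-46135694), an elongase of saturated and monounsaturated very long chains, was present at 134.48, 71.87 and 81.36 TPM in controls and at 0.35, 0.18 and 0.08 in the labelled knockout. It fell by 6.28 on the log2(TPM + 1) scale, which understates the change of a gene this low (SE 0.23, adjusted p = 1.7e-07), and was at -6.82 with median-of-ratios scaling. Elovl3 could pass the filter only through the controls, so its p-value is no separate support for the fall. Elovl2 (chr13:41182381-41220405), which lengthens long polyunsaturated acids towards DHA, was present at 135.09, 124.00 and 103.30 TPM in controls and at 22.07, 43.62 and 19.80 in the labelled knockout. Every control was above every labelled knockout library, and the fall was 2.12 on the log2 scale (SE 0.30, adjusted p = 5.9e-04). Elovl5 (chr9:77917364-77984519), which acts earlier on polyunsaturated acids, was present at 134.02, 122.51 and 64.14 TPM in controls and at 48.30, 55.10 and 45.55 in the labelled knockout. Control replicate 3 lay nearest to the labelled knockout, and the fall was 1.03 on the log2 scale (SE 0.28, adjusted p = 0.012).

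Elovl6, which extends palmitate to stearate, had the smallest change of the 5 as deposited. It was present at 13.76, 14.73 and 10.54 TPM in controls and at 8.91, 8.82 and 10.62 in the labelled knockout, and labelled knockout replicate 3 lay just above control replicate 3. It fell by 0.41 on the log2 scale (SE 0.14, adjusted p = 0.017), was at -1.28 with median-of-ratios scaling, and as deposited lost the call without control replicate 2 or labelled knockout replicate 1 (adjusted p = 0.066 and 0.051). Elovl1 (chr4:118428093-118432953), an elongase for saturated chains of the very long range used in sphingolipids, went the other way. It was present at 32.29, 32.47 and 31.55 TPM in controls and at 105.13, 90.71 and 100.77 in the labelled knockout, a rise of 1.59 on the log2 scale (SE 0.09, adjusted p = 3.8e-07) and of 0.66 with median-of-ratios scaling. Elovl1 overlaps Cdc20 on the other strand, and reads of the overlap cannot be told apart without a stated strand setting.

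As a share of the Elovl family's summed TPM, Elovl1 went from 8.97 ± 1.83% in controls to 45.5 ± 3.66% in the labelled knockout (SD, n = 3 each). Elovl2 went from 33.2 ± 2.81% to 13.1 ± 5.88%, and Elovl3 from 25.8 ± 5.45% to 0.093 ± 0.061%. Elovl5 stayed a large part, at 28.5 ± 5.85% and 22.8 ± 1.95%, and its groups overlapped. Elovl7, which is no member of the 32, held 0.016 ± 0.013% in controls and 14.2 ± 3.84% in the labelled knockout. The family's sum was 369 ± 79.4 TPM in controls and 218 ± 5.35 TPM in the labelled knockout. Shares within a library do not depend on how libraries are scaled by a factor.

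Among the desaturases, Scd1 and Scd2 behaved unlike each other. Scd1, the main stearoyl-CoA desaturase of liver, which makes oleate from stearate, was present at 749.26, 1105.07 and 608.85 TPM in controls and at 669.00, 1001.54 and 703.30 in the labelled knockout, with the groups fully interleaved. It was not called as deposited (-0.03, SE 0.24, adjusted p = 0.90), and was called lower with median-of-ratios scaling (-0.98, adjusted p = 0.0070). Scd2 (ENSMUSG00000025203, chr19:44293674-44306864), the isozyme of brain and of the neonatal liver, was present at 0.54, 0.70 and 0.60 TPM in controls and at 16.85, 24.35 and 15.69 in the labelled knockout. Scd2 could pass the filter only through the labelled knockout, so its p-value is no separate support for the rise. It rose by 3.61 on the log2(TPM + 1) scale (SE 0.16, adjusted p = 7.7e-08) and by 2.97 with median-of-ratios scaling, a mean 30.9 times the control mean. Even so, Scd2 held 2.34 ± 0.14% of the Scd family's sum in the labelled knockout, where Scd1 held 97.6 ± 0.21%. The Scd genes are near copies of each other in a cluster on chromosome 19, so that shared reads make their single values uncertain.

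Fads2 (chr19:10062765-10101746), the delta-6 desaturase that starts polyunsaturated acid synthesis, was present at 236.23, 268.32 and 165.58 TPM in controls and at 94.76, 102.09 and 101.34 in the labelled knockout. Every control was above every labelled knockout library, and the fall was 1.13 on the log2 scale (SE 0.17, adjusted p = 1.5e-04). Fads1, the delta-5 desaturase, was at 141 ± 28.1 TPM and 119 ± 11.6 TPM, and was not called as deposited (-0.23, adjusted p = 0.18) but called lower with median-of-ratios scaling (-1.16). Without control replicate 3 it was called lower as deposited too (-0.38, adjusted p = 0.030). The raw ratio of Fads2 to Fads1 was 1.57 ± 0.092 in controls and 0.839 ± 0.095 in the labelled knockout, and did not overlap. Fads3, a related gene outside the 32, took 0.21 ± 0.072% of the Fads family's sum in controls and 13.0 ± 0.41% in the labelled knockout.

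**Figure D2:**
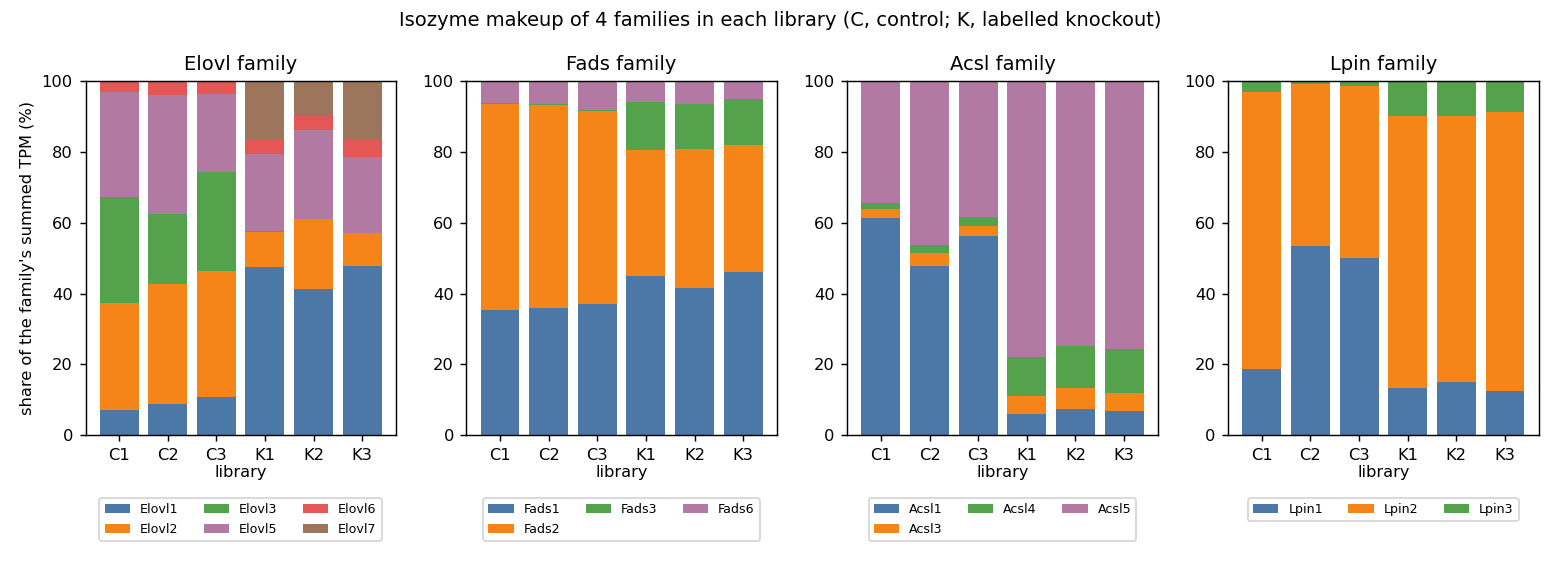
Share of each isozyme in its family's summed TPM (percent, stacked bars) in the control libraries (C1 to C3) and the labelled knockout libraries (K1 to K3) for the Elovl, Fads, Acsl and Lpin families. Elovl3 and Acsl1 shrink from means of 25.8% and 55.1% to 0.093% and 6.76%, and control replicate 1 stands apart from the other controls in the Lpin family.

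All 3 acyl-CoA synthetases of the list were higher as deposited, where 74.5% of all tested genes were. Acsl4 was higher with both scalings, as were 35.1% of all tested genes. Acsl4 (ENSMUSG00000031278, chrX:142317993-142390535), which prefers arachidonate, was present at 9.36, 10.16 and 9.56 TPM in controls and at 54.22, 53.27 and 58.97 in the labelled knockout. The spread within each group was small beside the gap, and the rise was 2.40 on the log2 scale (SE 0.09, adjusted p = 4.3e-08) and 1.50 with median-of-ratios scaling. Acsl5, an abundant synthetase of liver and gut, was present at 177.79, 189.04 and 144.62 TPM in controls and at 384.91, 333.87 and 360.46 in the labelled knockout, with no overlap. Its log2 fold change was 1.08 as deposited (SE 0.13) and 0.14, uncalled, with median-of-ratios scaling (adjusted p = 0.20). Acsl3, a synthetase of the endoplasmic reticulum and lipid droplets, was at 13.1 ± 1.65 and 25.2 ± 1.06 TPM, a log2 fold change of 0.90 as deposited and of 0.0067, uncalled, with median-of-ratios scaling.

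Within the Acsl family the sum was 435 ± 73.4 TPM in controls and 472 ± 24.3 TPM in the labelled knockout, but its makeup changed. Acsl1, the main hepatic isozyme and no member of the 32, held 55.1 ± 6.74% in controls and 6.76 ± 0.82% in the labelled knockout. Acsl5 held 39.6 ± 6.02% and 76.1 ± 1.58%, and Acsl4 2.27 ± 0.40% and 11.8 ± 0.72%. The raw ratio of Acsl4 to Acsl5 was 0.057 ± 0.0075 in controls and 0.155 ± 0.012 in the labelled knockout. Macrophages are known to express Acsl4, and the macrophage markers rose in the same libraries (summed 109.59 to 188.37 TPM against 1145.81 to 1477.02 TPM); their part in the Acsl4 rise was not tested.

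In glycerolipid assembly, 4 of the 9 tested genes were higher as deposited and 0 were lower, beside 74.5% and 10.7% of all tested genes. With median-of-ratios scaling 2 were higher and 5 lower, beside 35.1% and 36.6%. Gpam, the mitochondrial acyltransferase of the first step, was at 26.4 ± 3.18 and 21.5 ± 2.58 TPM and was not called as deposited (-0.28, adjusted p = 0.054). It was called lower with median-of-ratios scaling (-1.19, adjusted p = 3.7e-05). Agpat1 (chr17:34604262-34613449), one of the acyltransferases that make phosphatidic acid, was present at 6.24, 6.09 and 4.89 TPM in controls and at 15.82, 12.83 and 13.53 in the labelled knockout. No library overlapped, and it rose by 1.16 on the log2 scale (SE 0.12, adjusted p = 1.3e-05) and by 0.32 with median-of-ratios scaling (adjusted p = 0.016). Agpat1 overlaps Egfl8 on the other strand. Agpat3 was at 82.5 ± 10.8 and 158 ± 19.6 TPM (0.93 as deposited and 0.42 with quantile normalization, both called higher, and -0.0037 and uncalled by median-of-ratios scaling). Agpat2, the isozyme whose loss causes lipodystrophy, was at 112 ± 17.8 and 135 ± 8.55 TPM and was not called as deposited (0.29, adjusted p = 0.055). It was called lower with median-of-ratios scaling (-0.65).

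The lipins, phosphatidic acid phosphatases that make diacylglycerol, differed from gene to gene. Lpin3 (ENSMUSG00000027412, chr2:160880670-160906002) was present at 2.48, 2.20 and 2.34 TPM in controls and at 12.94, 10.46 and 12.02 in the labelled knockout. It rose by 1.94 on the log2 scale (SE 0.11, adjusted p = 2.8e-07) and by 1.16 with median-of-ratios scaling. Lpin1, which also acts as a transcriptional coactivator, was present at 14.90, 124.66 and 83.23 TPM in controls and at 17.33, 16.21 and 17.32 in the labelled knockout. Control replicate 1 lay below every labelled knockout library while the other controls lay far above them, and Lpin1 was not called as deposited (-1.62, SE 0.85, adjusted p = 0.13). Without control replicate 1 its log2 fold change as deposited was -2.52 and it was called lower. With every library and median-of-ratios scaling it was called lower too (-2.52, adjusted p = 0.022). Lpin2 was at 83.1 ± 22.5 and 97.0 ± 14.7 TPM and was not called as deposited (0.24, adjusted p = 0.28). Median-of-ratios scaling called Lpin2 lower (-0.69, adjusted p = 0.010).

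At the last step, Dgat2, which handles newly made fatty acids in hepatocytes, was present at 139.92, 193.27 and 157.95 TPM in controls and at 162.85, 111.14 and 127.21 in the labelled knockout, and the groups overlapped. It was not called as deposited (-0.30, adjusted p = 0.12), was called lower without labelled knockout replicate 1 (-0.45, adjusted p = 0.027) and lower with median-of-ratios scaling (-1.23, adjusted p = 1.3e-04). Dgat1, which esterifies fatty acids taken up or recycled, was at 14.2 ± 2.20 and 24.5 ± 1.57 TPM and was called higher as deposited (0.76), the size of the median gene, but not with median-of-ratios scaling (-0.14). The raw ratio of Dgat2 to Dgat1 went from 11.6 ± 1.48 in controls to 5.52 ± 1.40 in the labelled knockout. Both genes with too little signal to be tested moved apart in level: Pnpla3, a lipid droplet protein of fatty liver genetics, was at 0.03, 0.01 and 0.03 TPM in controls and 1.60, 0.64 and 1.38 in the labelled knockout, and Mogat1, a monoacylglycerol acyltransferase, was at 0.56, 0.40 and 0.31 TPM and 0.18, 0.17 and 0.06 TPM. With no filter on low values, Pnpla3 was called higher and Mogat1 lower.

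**Figure D3:**
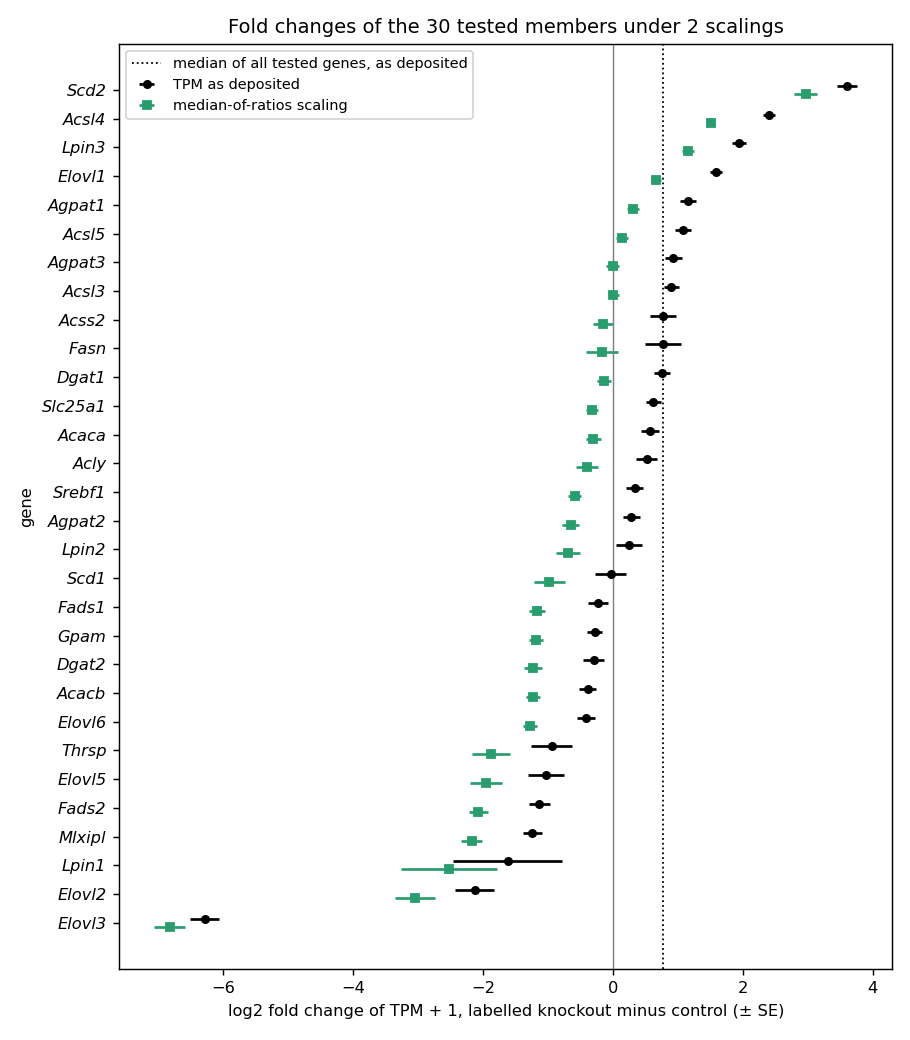
Log2 fold change of TPM + 1 (labelled knockout minus control, with SE) of the 30 tested genes, as deposited (black circles) and with median-of-ratios scaling (green squares). The dotted line marks the median of all tested genes as deposited (0.77). Scd2, Acsl4, Lpin3, Elovl1 and Agpat1, called higher with both scalings, lie above it as deposited and above 0 under the other scaling. Acsl5 and Acsl3 lie there too but are uncalled with median-of-ratios scaling, and the lowest gene is Elovl3.

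Ratios between paired genes were tested in 9 pairs with two-sided exact permutation tests, for which 3 against 3 libraries cannot go below p = 0.1. The log2 ratio differed by 3.64 for Scd2 to Scd1, by 1.32 for Acsl4 to Acsl5, by 0.65 for Agpat3 to Agpat2 and by 1.87 for Lpin2 to Lpin1, each higher in the labelled knockout. The Scd2 to Scd1 difference depends on the pseudocount of 1, since Scd2 was under 1 TPM in controls, and was 4.75 with a pseudocount of 0.1. As Scd2 could pass the filter only through the labelled knockout, this ratio is no separate support for its rise. The log2 ratio differed by -1.57 for Mlxipl to Srebf1, by -1.05 for Dgat2 to Dgat1, by -0.96 for Acacb to Acaca and by -0.90 for Fads2 to Fads1. These 8 pairs had groups that did not overlap and an exact permutation p = 0.1 (0.1125 adjusted over the 9), the smallest the design allows. No share was computed over other gene pairs, so the count of 8 has no background of its own. Among all tested genes taken singly, groups did not overlap for 86.8% as deposited. Elovl6 to Elovl5 overlapped (0.61, exact permutation p = 0.2). Agpat3 to Agpat2 was barely apart, with control replicate 2 at -0.082 and labelled knockout replicate 2 at -0.020. The Lpin2 to Lpin1 difference came mainly from control replicates 2 and 3, with log2 ratios of -0.22 and -0.04. Control replicate 1, at 1.98, lay near the labelled knockout (2.25 to 2.59), and without that control the difference was 2.57.

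**Figure D4:**
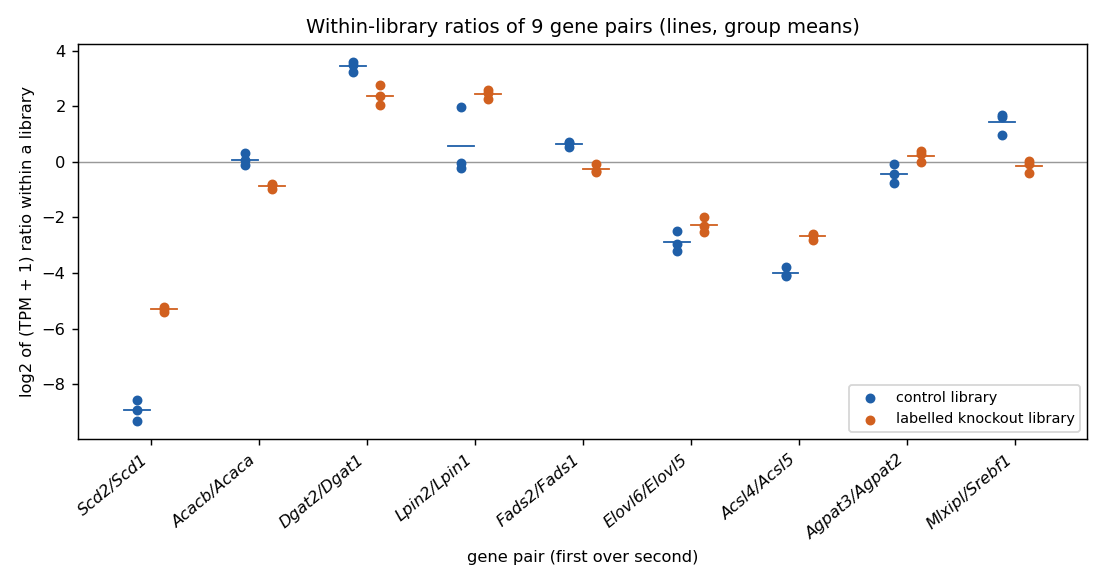
Log2 ratio of TPM + 1 within each library for 9 gene pairs, for control (blue) and labelled knockout (orange) libraries, with lines at the group means. The groups are apart in 8 pairs and overlap for Elovl6 to Elovl5. They are least apart for Agpat3 to Agpat2, and 1 control lies near the labelled knockout for Lpin2 to Lpin1.

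The wider pathway was read from 76 further genes, 34 regulators and 42 enzymes, of which 70 were tested. As deposited 42 were higher and 16 lower, with a median log2 fold change of 0.41, beside 74.5% higher, 10.7% lower and a median of 0.77 for all genes tested. With median-of-ratios scaling 19 were higher and 39 lower, beside 35.1% and 36.6% of all genes tested. All 19 were among the 42 and all 16 among the 39. Among regulators 23 of 34 were higher and 5 lower as deposited, and 7 and 18 with median-of-ratios scaling. Among the 36 tested enzymes 19 were higher and 11 lower as deposited, and 12 and 21 with median-of-ratios scaling. The largest rises were Elovl7, a very-long-chain elongase (0.053 to 30.8 TPM, log2 fold change 4.88), Pgd (15.4 to 478.9 TPM, 4.86) and G6pdx (1.29 to 26.9 TPM, 3.58), which make NADPH in the pentose phosphate pathway, Fads3 (0.81 to 35.0 TPM, 4.33) and Trib3, a stress-induced pseudokinase (5.84 to 45.5 TPM, 2.76). Elovl7, under 1 TPM in every control, and Fads3, at or above it in 1 control, could pass the filter only through the labelled knockout. Among the largest falls were Fabp1, the liver fatty acid binding protein (13838 to 1456 TPM, -3.24), Acsl1 (242 to 31.8 TPM, -2.86), Ppara, the receptor that drives fatty acid oxidation (25.7 to 6.58 TPM, -1.83), and Khk, the kinase that starts fructose breakdown (346 to 107 TPM, -1.70). Each of these genes kept its call with median-of-ratios scaling. For the falls this was no separate check, since all 1369 genes lower as deposited stayed lower with that scaling. For Elovl7 and Fads3 the kept call is no separate support either, since the filter passed them only through the labelled knockout.

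Genes that sit next to the pathway were followed whatever their result. Srebf2, the cholesterol-side SREBP gene, was at 13.8 ± 1.14 TPM in controls and 29.4 ± 4.70 TPM in the labelled knockout (1.03 as deposited; 0.13 and uncalled by median-of-ratios scaling). Insig2, an SREBP-retaining protein, was at 72.6 ± 10.3 and 154 ± 18.5 TPM (1.08 and 0.15, the latter not called). Insig1 (87.3 ± 6.32 and 69.5 ± 5.05 TPM, -0.32) and Scap, the SREBP escort (30.8 ± 2.99 and 23.3 ± 0.89 TPM, -0.38), were lower with both scalings, at -1.26 and -1.29 with median-of-ratios scaling. Nr1h3, the LXR-alpha receptor gene, and Mlx, the partner of ChREBP, were higher as deposited (0.33 and 0.46) but lower by median-of-ratios scaling (-0.60 and -0.46). Me1, the NADPH-making malic enzyme, likewise went from 0.48 to -0.45. Gpat4, the endoplasmic reticulum acyltransferase, was at 47.1 ± 3.73 and 32.8 ± 5.17 TPM and was lower with both (-0.52 and -1.44).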

How the data were processed

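The authors deposited 1 expression table in TPM, with 1 column per library. Per the submitters' processing notes, STAR 2.6.1c, RSEM and edgeR were used with genome build mm10; their roles, the read length and any strand setting are not given in the sources used. Per the labels' protocols, total RNA was extracted with Trizol from snap-frozen liver and made into standard Illumina libraries. The deposited TPM values hold no read totals, so depth cannot be known, no interval or floor is given, and no count test was run. RSEM shares ambiguous reads between near-identical genes. Nothing says whether libraries come from separate mice, so p-values measure only the spread between these libraries.

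With limma 3.58.1 (R 4.3.3), log2(TPM + 1) was modelled by group (trended, robust empirical Bayes, Benjamini-Hochberg threshold 0.05, no replicate block) over the 12796 genes reaching 1 TPM in 3 or more libraries. A fold change is labelled knockout minus control. The procedure was tested on simulated data with 200 changed genes and no shared shift between the groups. That test does not bear on the choice of scaling. Identifiers were matched to GENCODE M21 (55450 of 55536), and 0 value columns were left unmapped. Gene-pair ratios used exact permutation tests in scipy 1.17.1. Figures used matplotlib 3.10.9. Alternatives changed the pseudocount, filter, scaling, variance model and replicate block, and left out each library; calls with both scalings and isozyme shares were chosen after seeing the data.

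The members and lists were chosen with earlier results of these data known. Named genes are all 32 members, Vmp1, 8 further genes whatever their result (Srebf2, Scap, Insig1, Insig2, Nr1h3, Mlx, Me1, Gpat4), and from the 76 pathway genes the 5 largest called increases and the 5 largest called decreases among genes averaging 5 TPM or more whose groups do not overlap; 1 of these is not reported here. Motifs were searched in RefSeq promoter windows of 250 bases.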

Additional observations from a re-analysis of the deposited data

How the results depend on the processing

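Scaling between libraries was the choice that moved these results most. With median-of-ratios scaling 5 members were higher and 18 lower; quantile normalization gave 8 and 13; for the 76 pathway genes the counts were 19 and 39, and 25 and 33. Log2 fold changes turned negative under median-of-ratios scaling and quantile normalization for Srebf1 (-0.59 and -0.34), Acly (-0.40 and -0.17), Acaca (-0.30 and -0.22), Agpat2 (-0.65 and -0.20), Lpin2 (-0.69 and -0.35), Dgat1 (-0.14 and -0.028), Nr1h3 (-0.60 and -0.34), Mlx (-0.46 and -0.24) and Me1 (-0.45 and -0.16), and under median-of-ratios scaling only for Fasn (-0.16), Agpat3 (-0.0037), Acss2 (-0.15), Slc25a1 (-0.32) and Vmp1 (-0.18). Leaving out 1 library at a time gave 5 to 8 lower members, as deposited and with both scalings alike, the 5 without control replicate 2, and 4 to 5 higher with both scalings; Scd1 ranged from -0.23 to 0.20, being positive without control replicate 2 (0.20) or labelled knockout replicate 1 (0.076) or 3 (0.040). Calls were gained for Agpat2 without control replicate 1 (0.41), Lpin2 without control replicate 2 (0.44) and Gpam without labelled knockout replicate 3 (-0.37). The 9 gene-pair ratios kept their sign in 90 of 90 refits and the isozyme shares in 194 of 196, the exceptions being Gpam. Much of this was fixed in advance. Leaving out 1 library cannot turn a difference between groups that do not overlap. A scaling factor cancels within a library, but for the pseudocount. Sizes moved more: the Scd2 to Scd1 log2 difference, 3.64 with a pseudocount of 1, was 4.75 with 0.1, 3.94 with median-of-ratios scaling and 3.29 with quantile normalization, and the latter brought Dgat2 to Dgat1 to -0.73 and Acsl4 to Acsl5 to 0.94. Replicate numbers did not pair the libraries (correlations of same-numbered deviations 0.076, 0.040 and -0.12); with the replicate block 13 members were higher and 7 lower, Srebf1, Fasn and Thrsp losing the call (adjusted p = 0.057, 0.058 and 0.066). Among all genes tested, the block likewise called fewer higher and fewer lower. With no filter 14 members were higher and 9 lower, Srebf1 and Fasn losing the call (adjusted p = 0.084 and 0.056). More of all genes were then called in each direction, and the members' median log2 fold change was 0.31 beside 0.13 for all genes. Rescaling without mitochondrial and the 20 most abundant genes gave 12 members higher and 11 lower. Srebf1, Acly and Fasn lost the call, and Fads1, Gpam and Dgat2 were called lower. Among all genes tested this rescaling also called fewer higher and more lower. The members' median log2 fold change was then 0.12, beside 0.65 for all genes. Depth is unknown, so the reliability of values under 1 TPM (Elovl3, Scd2, Pnpla3 and Mogat1 in 1 or both groups) cannot be given. The cause of these changes was not tested.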
